A study of Mus musculus with 4 samples.

Results

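The genes described here are the transcriptional activators of the circadian clock and the REV-ERB/ROR loop that controls them, measured in whole lung of mice with sickle cell disease and of wild-type mice. The set holds 8 genes, named by their symbols: Arntl (also called Bmal1), Arntl2, Clock, Npas2, Nr1d1, Nr1d2, Rora and Nfil3. All 8 were found, among 30702 genes on the arrays. Each gene was read from a probe set annotated to it alone, and where a gene had several, from the one with the highest mean over the 4 arrays. The study compared adult, age-matched mice of 2 groups, each with 2 Affymetrix arrays of whole lung RNA: wild-type (WT) mice of the strain C57/BL6, and mice of the strain written as SCD Tg, where SCD stands for sickle cell disease. The sources used here do not give the transgene and its promoter, the genetic background of the SCD mice, the sex of the animals or the time of day at which lungs were taken. Nor do they tie each array to its own mouse, and the p-values then measure only the spread between these samples, which may be technical.

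The mammalian clock is a feedback loop of transcription factors that runs in most cells of the body, the lung included. BMAL1, the product of Arntl, pairs with CLOCK or with NPAS2, and the pair binds E-boxes and switches on the Per, Cry, Dbp and REV-ERB genes, whose products shut the loop in turn. The REV-ERB proteins, made from Nr1d1 and Nr1d2, are nuclear receptors that bind heme and repress genes carrying a ROR response element (RORE), Arntl being the best known; RORα, made from Rora, activates through the same element. NFIL3 represses genes with a D-box, where DBP, TEF and HLF activate, and is itself under RORE control. In a running clock Arntl and Npas2 messages peak at about the opposite phase of the day from those of Nr1d1 and Nr1d2.

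All 8 genes had a promoter window in the RefSeq table of the GRCm38.p6 assembly, with 11 windows in all because Arntl and Clock have several annotated starts; a window runs from 250 bases before to 50 after a start. Windows were searched on both strands for the E-box CACGTG, for 2 words of the RORE (TAGGTCA and TGGGTCA), for the nuclear receptor half-site AGGTCA, which lies inside the first RORE word, and for 2 words of the D-box (TTATGTAA and TTACGTAA). The run AAAGTAGG was added after it had been seen in the Arntl window. The windows below are those of the 2 genes that fell and the 2 that rose in SCD lung, and that of Nfil3, the other gene with a RORE word. They are written 5′ to 3′ on the strand of the gene, and capitals mark a match to any of these motifs.
Arntl, chr7:113207261-113207560, plus strand: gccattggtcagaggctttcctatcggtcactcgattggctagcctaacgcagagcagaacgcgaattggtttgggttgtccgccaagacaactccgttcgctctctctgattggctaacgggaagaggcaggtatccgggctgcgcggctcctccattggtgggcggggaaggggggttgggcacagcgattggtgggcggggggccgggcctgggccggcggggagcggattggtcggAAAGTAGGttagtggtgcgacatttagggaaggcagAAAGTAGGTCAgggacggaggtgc
Npas2, chr1:39194022-39194321, plus strand: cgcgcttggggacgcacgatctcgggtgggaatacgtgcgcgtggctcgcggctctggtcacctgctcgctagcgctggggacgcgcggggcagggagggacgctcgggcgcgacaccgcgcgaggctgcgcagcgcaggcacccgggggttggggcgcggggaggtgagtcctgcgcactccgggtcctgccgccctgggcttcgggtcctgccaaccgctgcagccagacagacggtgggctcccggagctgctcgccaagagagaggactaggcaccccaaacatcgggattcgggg
Nr1d1, chr11:98775328-98775627, minus strand: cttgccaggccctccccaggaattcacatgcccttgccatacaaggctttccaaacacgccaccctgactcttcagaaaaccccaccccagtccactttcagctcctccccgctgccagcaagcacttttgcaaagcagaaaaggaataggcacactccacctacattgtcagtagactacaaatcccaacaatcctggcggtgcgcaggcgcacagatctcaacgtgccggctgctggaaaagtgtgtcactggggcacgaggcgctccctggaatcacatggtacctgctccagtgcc
Nr1d2, chr14:18239057-18239356, minus strand: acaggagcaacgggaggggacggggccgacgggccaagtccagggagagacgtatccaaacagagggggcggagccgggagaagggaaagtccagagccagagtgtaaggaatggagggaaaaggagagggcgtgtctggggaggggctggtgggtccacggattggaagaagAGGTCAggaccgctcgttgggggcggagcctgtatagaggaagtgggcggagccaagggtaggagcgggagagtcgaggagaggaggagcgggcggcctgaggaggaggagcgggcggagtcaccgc
Nfil3, chr13:52980990-52981289, minus strand: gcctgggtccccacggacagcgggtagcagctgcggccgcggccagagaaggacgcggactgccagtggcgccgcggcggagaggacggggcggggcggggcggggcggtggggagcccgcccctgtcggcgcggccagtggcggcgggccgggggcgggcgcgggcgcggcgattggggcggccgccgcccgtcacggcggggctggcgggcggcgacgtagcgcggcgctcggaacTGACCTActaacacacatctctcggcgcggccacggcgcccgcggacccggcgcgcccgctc

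A RORE word was found in 2 of the 11 windows, in Arntl and in Nfil3, and in 6.45% of all 32851 promoter windows of the table. In Arntl it starts at base 31 counted from the annotated start, on the strand of the gene, and in Nfil3 it lies on the other strand, 12 bases before the start. The run AAAGTAGG occurs 2 times in this Arntl window, once 10 bases before the start and once leading into the RORE word; 0.816% of all windows hold it. The half-site was found in 4 genes and in 16.3% of all windows; in Arntl and Nfil3 it is the one inside the RORE word, and in Nr1d2 it lies 77 bases before the start and in Clock 119 bases before one of its starts. None of the 11 windows held the E-box or the D-box words, which occurred in 7.15% and 1.06% of all windows. Such matches describe the letters of these windows only.

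The deposited values are log2 expression values, 1 for each probe set and array, and differences below are SCD minus WT on that scale ± the moderated standard error (SE) of limma, with n = 2 arrays per group and p-values adjusted by the Benjamini-Hochberg method over all 30702 genes. The REV-ERB genes rose and the activator genes Arntl and Npas2 fell in SCD lung, while Clock, Arntl2, Rora and Nfil3 did not pass the test. Whether lungs of both groups were taken at the same time of day is not given. For these and the other clock genes, a difference in time of collection therefore cannot be told apart from one between the groups of mice. At an adjusted p of 0.05, 4 of the 8 genes were called, 2 of them higher and 2 lower, against 3.1% of all genes tested (2.47% higher and 0.635% lower). The median size of the difference, whatever its sign, was 0.689 over the 8 genes and 0.148 over all genes. The 2 WT and the 2 SCD values did not overlap for any of the 8 genes, a separation seen in 47.7% of all genes. The genes were chosen with earlier results of these data known.

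**Figure D1:**
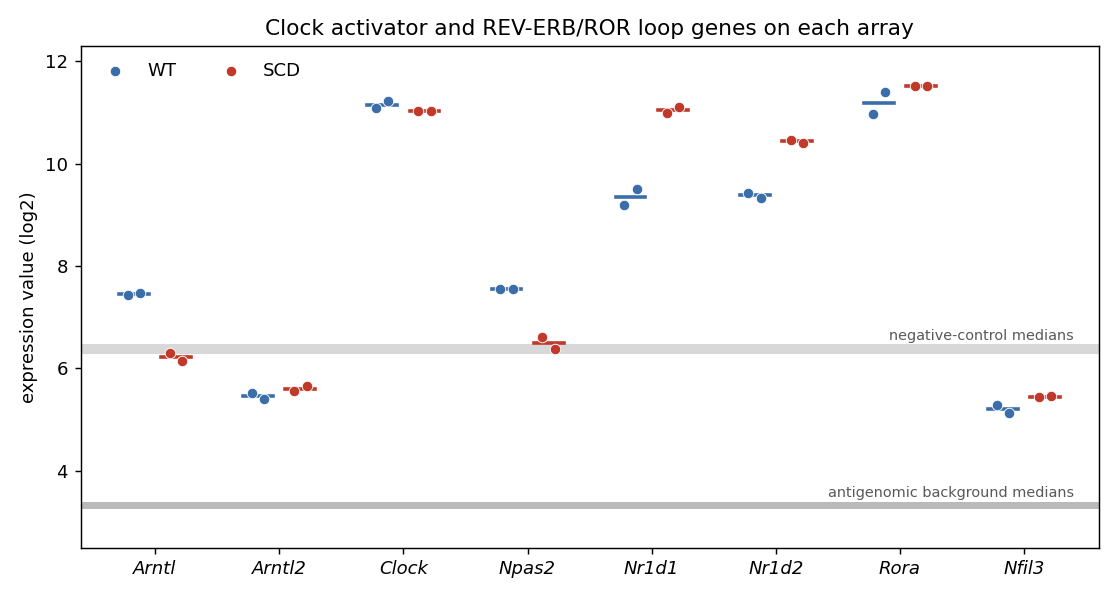
Expression value (log2) of the 8 genes on each array, with points for the 2 WT and the 2 SCD arrays and lines for group means; grey bands span the 4 array medians of the negative-control and of the antigenomic background probe sets. Nr1d1 and Nr1d2 lie higher and Arntl and Npas2 lower on both SCD arrays, while the groups of the other 4 genes differ by less than 0.33.

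Arntl encodes BMAL1, the activator subunit shared by the CLOCK and NPAS2 complexes. Its values were 7.43 and 7.48 in WT lung and 6.30 and 6.14 in SCD lung. Both SCD values lay below both WT values, with a gap of 1.13 between the groups. Arntl fell by 1.23 ± 0.11 (2.35-fold lower; limma adjusted p = 0.0107), with a 95% interval of -1.52 to -0.94. The SCD mean of 6.22 lay below the median of the negative-control probe sets on these arrays (6.29), while the WT mean of 7.45 lay above theirs (6.48), so that the size of the fall may be a lower bound. The negative controls are not the floor of the arrays, however. The median over all genes was lower, at 5.88 in WT and 5.89 in SCD, and that of the antigenomic background was 3.32 and 3.37. Whether the fall was cut short was not tested.

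Npas2 encodes a paralogue of CLOCK that also pairs with BMAL1 and, like the REV-ERB proteins, binds heme. Its values were 7.56 and 7.56 in WT lung and 6.62 and 6.38 in SCD lung. The WT arrays were nearly identical and the SCD arrays both lower, with a gap of 0.93. Npas2 fell by 1.05 ± 0.12 (2.08-fold lower; limma adjusted p = 0.0210; 95% interval -1.37 to -0.73). Its SCD mean of 6.50 lay 0.21 above the negative-control median, so that the size of this fall, too, may be a lower bound. When every probe set was fitted on its own, with p-values adjusted over 65956 probe sets, Npas2 missed the threshold (adjusted p = 0.0598) and 3 of the 8 genes were called.

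Clock encodes the other partner of BMAL1. Its values were 11.09 and 11.21 in WT and 11.04 and 11.02 in SCD lung. The SCD arrays were the lower ones, but by a gap of 0.05 only. The difference of -0.12 ± 0.09 did not pass (limma adjusted p = 0.574; 95% interval -0.35 to 0.10). Its size depended on the scaling: it was -0.24 after repeated quantile normalization, -0.24 after cyclic loess and -0.32 with the shift of the positive-control probe sets taken off the SCD values, where the 95% interval ran from -0.54 to -0.09 and the adjusted p was 0.119. Without WT replicate 2 it was -0.06, and without WT replicate 1 -0.19. Measured within each array, Clock minus Npas2 was 3.53 and 3.66 in WT and 4.41 and 4.64 in SCD lung, a change of 0.93. Values of different probe sets are not comparable as levels, so that only the change between the groups is described.

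Arntl2 encodes BMAL2, a paralogue of BMAL1. Its values were 5.53 and 5.40 in WT and 5.56 and 5.65 in SCD lung, with a difference of 0.14 ± 0.12 that did not pass (limma adjusted p = 0.628; 95% interval -0.16 to 0.45). All 4 values lay below the negative-control medians. The sign of this difference turned, to -0.05, with the positive-control shift removed.

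Nr1d1 encodes REV-ERBα. Its values were 9.20 and 9.50 in WT and 10.99 and 11.11 in SCD lung. Both SCD arrays lay above both WT arrays by a gap of 1.5, which is larger than the 0.30 between the WT arrays. Nr1d1 rose by 1.71 ± 0.13 (3.26-fold higher; limma adjusted p = 0.0078; 95% interval 1.37 to 2.04), and it stood at rank 121 among all increases. Thra, a thyroid hormone receptor gene whose span overlaps that of Nr1d1 in the RefSeq table, was measured by its own probe set at 7.61 and 8.06 in WT and 7.48 and 7.43 in SCD lung (difference -0.38 ± 0.17; adjusted p = 0.369). Thra and the other overlapping or neighbouring genes named here were looked up after the data had been seen.

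Nr1d2 encodes REV-ERBβ, which shares the DNA element and the heme ligand of REV-ERBα. Its values were 9.42 and 9.34 in WT and 10.47 and 10.41 in SCD lung. The WT arrays were 0.09 apart and the SCD arrays 0.06, and the groups were 0.98 apart. Nr1d2 rose by 1.06 ± 0.09 (2.08-fold higher; limma adjusted p = 0.00893; 95% interval 0.83 to 1.29), with rank 423 among all increases. The increase of Nr1d1 exceeded that of Nr1d2 by 0.65, a difference between the genes that was not tested. Thrb, the next protein-coding gene beside Nr1d2, had a difference of 0.16 ± 0.12 (adjusted p = 0.578).

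Rora, the activator that opposes the REV-ERB proteins at the RORE, had 3 probe sets. The brightest, used here by the rule, is annotated to Rora but carries an unmapped identifier with no chromosome, and its match to Rora was not checked. It read 10.98 and 11.41 in WT and 11.51 and 11.53 in SCD lung. The WT arrays were 0.43 apart, more than the gap of 0.10 between the groups. The difference of 0.33 ± 0.15 did not pass (limma adjusted p = 0.387; 95% interval -0.07 to 0.72). It rested on the WT arrays, at 0.11 without WT replicate 1 and 0.54 without WT replicate 2 (adjusted p = 0.0692), and lay between 0.13 and 0.21 under quantile, cyclic loess and control-shift scaling. The probe set of Rora with a chromosome in its identifier read 7.27 and 7.50 in WT and 7.48 and 7.48 in SCD lung, a difference of 0.10 (adjusted p = 0.825 in the fit of every probe set), and the third differed by 0.05 (adjusted p = 0.928). A long non-coding RNA gene that overlaps Rora, 9530091C08Rik, read 8.47 and 8.39 in WT and 7.76 and 7.72 in SCD lung and fell by 0.69 ± 0.10 (adjusted p = 0.0348).

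Nfil3 encodes the D-box repressor NFIL3, also known for its part in the development of natural killer cells. Its values were 5.29 and 5.13 in WT and 5.44 and 5.45 in SCD lung. The difference of 0.24 ± 0.12 did not pass (limma adjusted p = 0.421; 95% interval -0.07 to 0.54), and all 4 values lay below the negative-control medians. All 4 lay above the antigenomic background medians, which ran from 3.26 to 3.40 over the arrays. Whether a fall could have been measured at such dim values was not tested.

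The 2 REV-ERB genes moved against Arntl and Npas2 on the same arrays. Nr1d1 minus Arntl was 1.77 and 2.02 in WT lung and 4.69 and 4.97 in SCD lung, a change of 2.94. Nr1d2 minus Npas2 was 1.87 and 1.78 in WT lung and 3.85 and 4.02 in SCD lung, a change of 2.11. The groups did not overlap in any of the 4 such pairings. This follows from the separation of each gene in opposite directions and adds no further evidence. These changes are the sums of the differences given above and were not tested separately; with Arntl and Npas2 near the negative controls on the SCD arrays, they may be lower bounds.

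**Figure D2:**
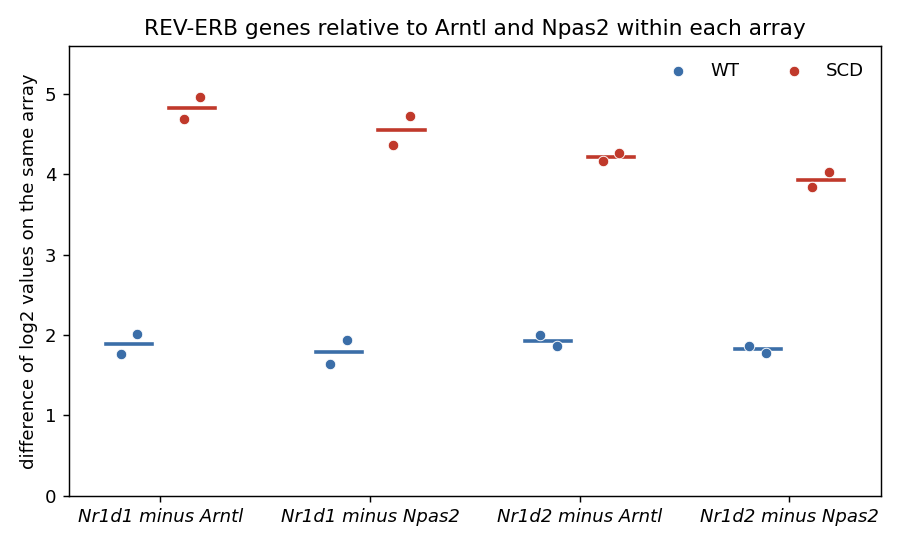
Difference of log2 values between a REV-ERB gene and Arntl or Npas2 on the same array, with points for the arrays and lines for group means. All WT points lie between 1.64 and 2.02 and all SCD points between 3.85 and 4.97.

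The rest of the clock was covered by 18 other genes, of which 16 were measured alone. Of these, 6 rose, 0 fell and 10 did not pass, with a median difference of 0.371 against 0.002 over all genes. The period genes Per2 and Per3 rose by 1.11 ± 0.10 and 1.27 ± 0.11, and Bhlhe40, a repressor of BMAL1 activity, by 1.72 ± 0.11. The D-box activators Dbp, Tef and Hlf, which act at the element that NFIL3 occupies, rose by 1.34 ± 0.11, 0.69 ± 0.10 and 0.77 ± 0.11. The repressor genes Per1 (0.09 ± 0.11), Cry1 (0.21 ± 0.11) and Cry2 (0.45 ± 0.10) did not pass, nor did Bhlhe41 (0.75 ± 0.15; adjusted p = 0.086) or the ROR gene Rorb (-0.30 ± 0.15). Tef and Hlf missed the threshold without the intensity trend and with the positive-control shift removed, which left 4 of the 16 genes higher.

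**Figure D3:**
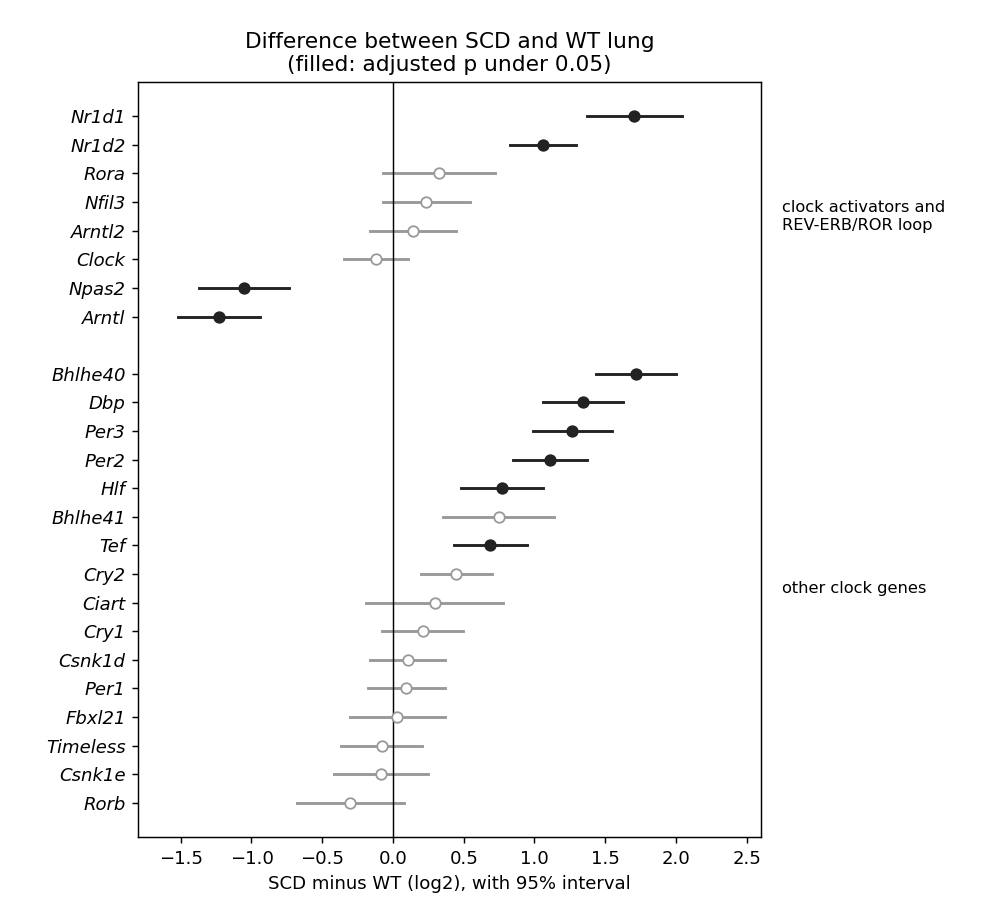
Difference between SCD and WT lung (log2) with its 95% interval for the 8 genes and for the 16 other clock genes measured; filled points passed an adjusted p of 0.05. Arntl and Npas2 are the only filled points below 0 in this plot, and 8 filled points lie above it.

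Most genes of proteins that work with these factors did not pass the test. Of 6 genes of the REV-ERB corepressor complex 4 were measured, and all lay between -0.02 and 0.05 and did not pass, among them the deacetylase gene Hdac3 (0.01 ± 0.12), Gps2 (0.05 ± 0.13) and Tbl1xr1 (-0.02 ± 0.10). Of 5 measured genes for turnover of REV-ERB or ROR proteins none passed, with Arih2 at -0.17 ± 0.11 and Gsk3a at 0.10 ± 0.16. Among 10 measured coregulators and modifiers of BMAL1, 1 rose and 9 did not pass. This was Nampt, the enzyme of NAD salvage and itself a target of CLOCK and BMAL1, at 0.60 ± 0.10 (limma adjusted p = 0.0470), and it missed the threshold under every other scaling tried (quantile, equal medians, cyclic loess and control shift). The kinase gene Prkca (0.59 ± 0.10; adjusted p = 0.0524) did not pass. After repeated quantile normalization the coactivator gene Crebbp, at -0.16 ± 0.07 in the fit described here, was the 1 gene of this list called, and it was lower.

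Genes reported as REV-ERB targets in other tissues or cells, among them liver and macrophages, numbered 11, of which 3 were called higher, 0 lower and 8 in neither direction; their median difference was 0.642. These targets are known as genes that REV-ERB proteins repress. Cdkn1a, the cell cycle inhibitor p21, rose by 2.25 ± 0.12 (limma adjusted p = 0.0044), from 10.24 and 10.52 in WT to 12.61 and 12.64 in SCD lung. Il1b, the interleukin 1β gene, which neutrophils and macrophages also express, rose by 2.65 ± 0.19. Alas1, the housekeeping enzyme that starts heme synthesis and a gene linked to NPAS2 and REV-ERB in liver, rose by 1.21 ± 0.08 (adjusted p = 0.0078), from 10.01 and 10.07 to 11.25 and 11.25. Both Alas1 and Nr1d1 were higher on both SCD arrays, and Npas2 lower. Ccl2 (0.74 ± 0.16), Il6 (0.91 ± 0.24), Nlrp3 (0.59 ± 0.20) and Cxcl5 (0.64 ± 0.19) did not pass, nor did Cx3cr1 (0.43 ± 0.20), Mmp9 (0.23 ± 0.13), Fgf21 (-0.23 ± 0.14) or Fabp7 (-0.28 ± 0.29).

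The genes whose 4 values, each taken relative to the gene's own mean, lay nearest to those of Arntl were Fabp4, the fatty acid binding protein of adipocytes and alveolar macrophages, Bex4 and Pitpnc1, at Euclidean distances of 0.066, 0.09 and 0.13. They fell by 1.22, 1.19 and 1.21. Nearest to Nr1d1 were the mucin gene Muc4, the lactoferrin gene Ltf and the cadherin-related gene Cdhr3, at distances of 0.101, 0.108 and 0.109, which rose by 1.77, 1.67 and 1.62. With 4 arrays in 2 groups, such likeness means little beyond a difference of similar size.

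Whole lung holds many cell types, and in such samples fewer cells of a type and less RNA per cell cannot be told apart. Markers of lung epithelium were bright: Sftpc and Scgb1a1 stood at the highest value of the table, 19.93, on all 4 arrays and can show no difference. None of the other 9 epithelial markers measured passed, with differences from -0.17 to 0.43 and a summed level (log2 of the sum of linear values) of 19.04 and 19.06 in WT and 19.02 and 19.02 in SCD lung. The 0.43 was that of Tppp3, which is counted again among the markers of ciliated cells, also an epithelial cell type, below. Neutrophil markers rose in 7 of 10 cases, with a summed level of 16.07 and 16.47 in WT and 18.75 and 18.91 in SCD lung. Ciliated cell markers rose in 7 of 9 cases (summed level 12.52 and 12.69 against 13.97 and 13.92) and T and NK cell markers in 4 of 10 (12.07 and 11.92 against 12.80 and 13.04). Endothelial markers fell in 5 of 12 cases and rose in 1, with a summed level of 16.56 and 16.69 in WT and 16.02 and 16.09 in SCD lung. Of 7 cardiac muscle markers 2 rose, Nppa by 2.88 ± 0.13 and Myl7 by 1.20 ± 0.10 (summed level 13.85 and 13.75 against 14.67 and 14.75). Of 7 adipocyte markers Adipoq fell, by 1.33 ± 0.14 (9.47 and 9.73 against 8.83 and 8.84), and of 7 fibroblast markers Col1a1, by 0.64 ± 0.10 (14.17 and 14.56 against 14.48 and 14.35). Among 7 alveolar macrophage markers Marco and Fabp4 fell, by 1.48 ± 0.10 and 1.22 ± 0.10, and Plet1 rose by 1.03 ± 0.14 (14.57 and 14.83 against 15.36 and 15.39). None of 5 B cell markers passed (10.50 and 10.61 against 10.40 and 10.33). The shifts of these marker lists moved with the changes of Arntl, Npas2, Nr1d1 and Nr1d2, and their part in them was not tested.

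The fit over the whole table called 952 genes at the 0.05 threshold, of which 757 (79.5%) were higher in SCD lung. The split depended on the scaling, with 64.4% higher after repeated quantile normalization and 47.8% with the positive-control shift removed; the positive-control median was 0.196 higher and the negative-control median lower, by -0.184, on the SCD arrays, and their part was not tested. Under each of these scalings the same count of the 8 genes was called, 2 higher and 2 lower. The number of calls depended on having both SCD arrays. With either left out, the spread within groups came from the 2 WT arrays alone. Nr1d1 then differed by 1.77 without SCD replicate 1 and 1.65 without SCD replicate 2. Its SE was 0.19 in each, against 0.13 with all arrays. Npas2 differed by -1.17 and -0.93. With SCD replicate 1 left out limma called 0 genes, with 3306 at an unadjusted p under 0.05, and with SCD replicate 2 left out also 0, with 3270. The differences of Nr1d1, Nr1d2, Arntl and Npas2 kept their sign there, at adjusted p from 0.083 to 0.173. Without WT replicate 1, 508 genes and 2 of the 8 were called, Arntl (adjusted p = 0.0532) and Npas2 (0.0883) missing the threshold; without WT replicate 2, Npas2 missed it (0.0706).

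**Figure D4:**
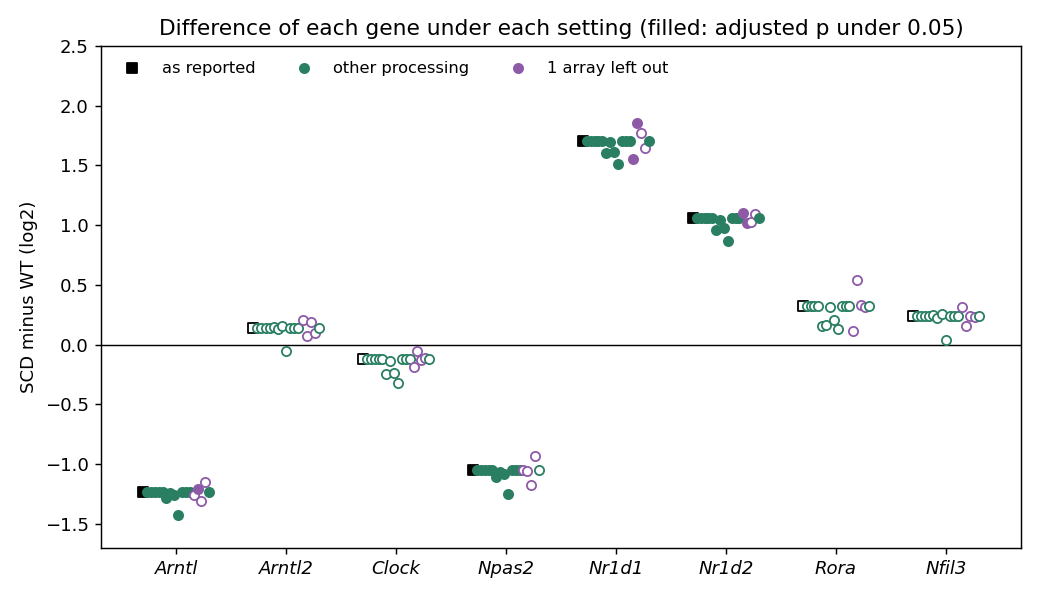
Difference between SCD and WT lung (log2) of each of the 8 genes as reported (squares), under other processing (green) and with 1 array left out (purple); filled symbols passed an adjusted p of 0.05. Arntl, Npas2, Nr1d1 and Nr1d2 keep their sign throughout, Npas2 between -1.25 and -0.93 and Nr1d1 between 1.51 and 1.86, while open symbols mark the settings in which a gene was not called.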

How the data were processed

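Whole lung RNA, on 2 WT and 2 SCD arrays, was extracted with TRIzol and labelled with a 3' in vitro transcription kit, per the labels' protocols. The authors deposited 1 value for each of 72688 probe sets on each array. The software named is RMA (robust multi-array average), Partek and Affymetrix Expression Console, without versions or order, per the submitters' processing notes. The deposited values were read as log2 from their range (1.72 to 19.93); the scale is not written in the table. The number of arrays limits the precision.

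Groups came from the sample titles. The annotation of the platform, its symbols brought up to date from RefSeq (GRCm38.p6), paired 31258 of 65956 transcript clusters with 1 gene, which gave 30702 genes. The comparison of SCD with WT used R 4.3.3 and limma 3.58.1. It used lmFit and eBayes with intensity trend, group as the only term, two-sided p-values and no filter on dim genes. The same fit was run on simulated arrays drawn from the variances that it had estimated. Such a run checks the code and not whether these variances suit the arrays. Of the genes, 21 had identical values on all arrays, none of them among the 8. Named genes were the 8 genes, the 3 nearest in pattern to Arntl and to Nr1d1, and from each pathway list the genes past the threshold or, with fewer than 2, the 2 with the smallest p; any others were picked with their values known. The genes, lists and tests were chosen with earlier results of these data known. Alternatives were the replicate block, other normalizations, filters, variance priors, probe set rules and thresholds, and each array left out. The replicate numbers of WT and SCD arrays came from the titles.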

Additional observations from a re-analysis of the deposited data

How the results depend on the processing

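Nr1d1 and Nr1d2 passed the threshold in 15 of 17 alternative settings, Arntl in 14 and Npas2 in 12, with no change of sign; every miss came from leaving out an array, except that of Npas2 with every probe set. Clock, Arntl2, Rora and Nfil3 passed in none (Clock between -0.32 and -0.06, Rora between 0.11 and 0.54), and Arntl2 alone changed sign, to -0.0537 with the positive-control shift removed. Apart from settings that left out an array, Arntl lay between -1.43 and -1.23, Npas2 between -1.25 and -1.05, Nr1d1 between 1.51 and 1.71 and Nr1d2 between 0.86 and 1.06. With 1 array left out, 0 to 786 genes and 0 to 3 of the 8 were called; the lone array of a group was then assumed to vary like the others. At an adjusted p of 0.01, 286 genes and 2 of the 8 were called, and at 0.1, 1754 genes. With the replicate block, 973 genes and 4 of the 8 were called, and Tef, Hlf and Nampt were not; deviations of same-numbered arrays did not go together (r = -0.0022 across genes), so the numbers were not taken as pairs. With 2 arrays per group, a difference of Clock, Rora or Nfil3 may have been missed. The interval of a gene does not mark what could be detected, because calls were made on adjusted p-values. Cry2 was not called at 0.45 (limma adjusted p = 0.102), although its interval, 0.20 to 0.70, excluded 0. The smallest difference that could be called was not tested.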
